A study of Mus musculus with 4 samples.

Results

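The TNF family death ligands and receptors described here are 10 genes, Fasl, Tnfsf10, Tnf, Lta, Ltb, Fas, Tnfrsf10b, Tnfrsf9, Tnfrsf4 and Tnfrsf18, chosen by name from a table of 37305 gene rows. Each of the 10 symbols stood on a single row, and all 10 passed the filter for testing. They were measured in splenic natural killer (NK) cells of C57BL/6 mice on postnatal day 56. DKK2-treated cells (2 libraries) were cultured with recombinant murine IL-15 (50 ng/ml) for 24 hours and then for another 24 hours with DKK2 (Dickkopf 2, a secreted antagonist of Wnt co-receptors) at 200 ng/ml. Control cells (2 libraries) had the same IL-15 culture and then a mock treatment of the same length, so IL-15 exposure was shared by both groups. Whether replicates came from separate animals or cultures is not stated by the labels, so the p-values below cover only library-to-library spread, which may be technical.

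Most ligands of the tumour necrosis factor (TNF) family are made as membrane proteins that act as trimers, on the cell surface or after shedding. Fas and the TRAIL receptor carry a cytoplasmic death domain, through which the adaptor FADD recruits and activates caspase-8. Fas ligand and TRAIL on NK cells thereby kill target cells by a route that does not use granules. CD137, OX40 and GITR lack a death domain and signal through TRAF proteins, and on activated lymphocytes they act as co-stimulatory receptors.

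None of the 10 genes passed limma between DKK2-treated and control cells. Values are FPKM (fragments scaled to transcript length and library size), a measure per length, so levels of different genes can be set side by side. Differences are log2 fold changes, DKK2 minus control, on the log2(FPKM + 1) scale, which understates changes of low genes, with the standard error (SE) and 95% interval from limma. In limma, with Benjamini-Hochberg adjustment across all 12275 genes tested, the adjusted p was 1 for each of the 10, and 0 of the 10 were under an unadjusted p of 0.05. In the same fit 0.0326% of all genes tested were called (0.00815% as higher, 0.0244% as lower), and 1.84% were under the unadjusted threshold. All 10 intervals of the difference included 0, with SEs of 0.278 to 0.608. For 9 of the 10 genes a gap between replicates of a group was larger than the gap between the group means, as it was for 84.4% of all genes tested. Tnfrsf10b was the exception, with a gap between group means larger than both gaps between replicates.

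The libraries differed in depth and in markers of other cells. By the commonest low values, the other libraries had 0.346 to 0.395 of the depth of control replicate 1. Ncr1, an activating receptor gene that defines NK cells, was at 389 and 197 FPKM in the DKK2 libraries and at 303 and 193 FPKM in the controls. The 8 NK markers listed, which include the highly expressed Gzmb, summed to 9931 and 9553 FPKM with DKK2, against 15700 and 13230 FPKM in the controls. Without Gzmb the other 7 summed to 3036 and 3437 FPKM with DKK2, against 4153 and 3321 FPKM in the controls, so these sums overlapped. Of the 8 NK markers, 5 had estimates above 0. Both DKK2 libraries lay below both controls for 2 of the 8, Gzmb and Prf1, and above both for 0. Over all genes tested these shares were 14.8% and 11.8%. Of 40 marker genes of other lymphoid and myeloid cells, 37 were lowest in control replicate 1. The libraries are bulk samples, in which fewer cells of a type and less RNA per cell cannot be told apart.

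The 10 transcripts spanned from 0.612 to 640.3 FPKM over the 4 libraries. Tnfrsf9 had the highest level, followed by Fasl and Tnfrsf18, and the 4-library ranges of these 3 genes did not overlap each other. The range of Tnfrsf18 overlapped that of Ltb. Tnf and Ltb came next, with medians of 23.0 and 20.6 FPKM and overlapping ranges. Fas, Lta and Tnfsf10 followed with medians of 6.59, 6.10 and 5.57 FPKM and did not differ beyond their spread. Tnfrsf4 and Tnfrsf10b were lowest, at medians of 1.66 and 1.65 FPKM, again with overlapping ranges, into which the lowest values of Fas and Lta reached. Both DKK2 libraries lay above both controls for 2 of the 10 genes, Fas and Tnfrsf4, and below both for 2, Lta and Tnfrsf10b. Over all genes tested these shares were 11.8% above and 14.8% below, together 26.5%.

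**Figure D1:**
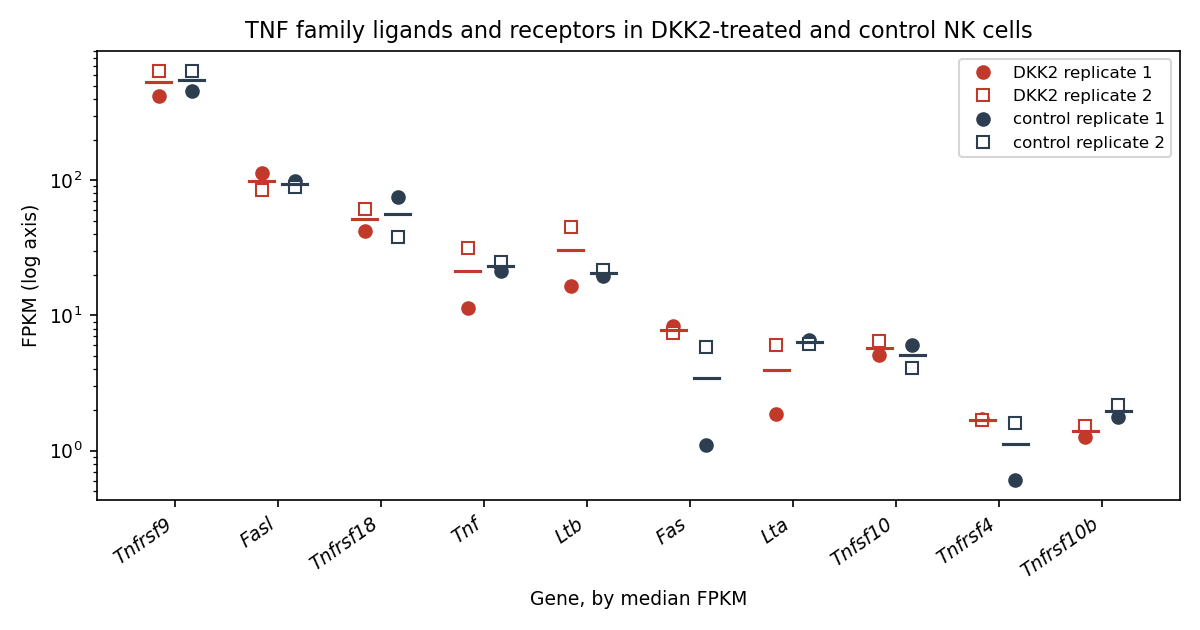
FPKM (log axis) of the 10 genes in each library, ordered by median level, with DKK2 libraries left and controls right for each gene and horizontal lines at the group means (n = 2 each). Tnfrsf9 stands highest at 420.3 to 640.3 FPKM, and the largest gaps within a group are those of Tnf, Lta and Ltb between the DKK2 libraries and of Fas and Tnfrsf4 between the controls.

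The death ligand Fas ligand was transcribed at a high level in every library. Fasl was at 114 and 84.1 FPKM in the DKK2 libraries and at 98.9 and 88.4 FPKM in the controls. The DKK2 libraries were the highest and the lowest of the 4, with both controls between them. Fasl averaged 99.1 ± 21.2 FPKM in DKK2-treated cells, against 93.7 ± 7.38 FPKM in controls (SD, n = 2 each), and its log2 fold change was 0.07 ± 0.28 (SE, 95% interval -0.65 to 0.79). Its highest value was 1.36 times its lowest, the smallest such ratio among the 10 genes. Tnfsf10, which encodes TRAIL, was at 5.08 and 6.43 FPKM in DKK2-treated cells, against 6.05 and 4.11 FPKM in the controls. Here too the groups overlapped, and the difference was 0.16 ± 0.32 (95% interval -0.65 to 0.98). Leaving out control replicate 2 turned both estimates to slightly below 0, at -0.01 for Fasl and -0.07 for Tnfsf10, and leaving out DKK2 replicate 1 gave -0.15 for Fasl.

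The genes of TNF and the lymphotoxins lie next to each other in the order Ltb, Tnf, Lta on mouse chromosome 17. TNF is a secreted and membrane-bound inflammatory cytokine, lymphotoxin alpha is secreted as a homotrimer, and lymphotoxin beta anchors lymphotoxin alpha at the membrane in a complex that binds the lymphotoxin beta receptor. Their promoter windows are shown because these neighbours shared a low library, and that of Fas because it had the largest estimate among the 10 genes. The windows are RefSeq sequence of build GRCm38.p6, which is not the mm9 build named in the submitters' processing notes, and run 5′ to 3′ on the gene's strand from 250 bases before to 50 bases after the annotated start. They are Tnf at chr17:35201958-35202257 (minus strand), Lta at chr17:35205302-35205601 (minus strand), Ltb at chr17:35194257-35194556 (plus strand) and Fas at chr19:34290409-34290708 (plus strand). Capitals mark matches to any of 4 motifs searched on both strands.
Tnf: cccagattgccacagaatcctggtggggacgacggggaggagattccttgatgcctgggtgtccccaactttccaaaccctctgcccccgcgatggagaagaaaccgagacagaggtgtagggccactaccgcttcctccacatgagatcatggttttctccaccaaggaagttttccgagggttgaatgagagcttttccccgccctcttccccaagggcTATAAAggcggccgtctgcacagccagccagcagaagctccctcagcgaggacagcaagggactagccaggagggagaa
Lta: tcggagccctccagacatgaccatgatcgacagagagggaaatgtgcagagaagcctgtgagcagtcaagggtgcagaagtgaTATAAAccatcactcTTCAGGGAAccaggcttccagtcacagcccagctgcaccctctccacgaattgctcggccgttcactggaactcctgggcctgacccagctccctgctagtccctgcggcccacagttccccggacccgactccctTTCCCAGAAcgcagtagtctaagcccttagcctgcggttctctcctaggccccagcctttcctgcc
Ltb: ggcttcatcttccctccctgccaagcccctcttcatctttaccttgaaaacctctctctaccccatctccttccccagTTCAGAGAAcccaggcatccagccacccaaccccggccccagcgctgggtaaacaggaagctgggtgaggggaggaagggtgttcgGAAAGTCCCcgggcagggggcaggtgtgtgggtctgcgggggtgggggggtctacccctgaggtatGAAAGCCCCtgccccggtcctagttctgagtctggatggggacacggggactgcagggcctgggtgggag
Fas: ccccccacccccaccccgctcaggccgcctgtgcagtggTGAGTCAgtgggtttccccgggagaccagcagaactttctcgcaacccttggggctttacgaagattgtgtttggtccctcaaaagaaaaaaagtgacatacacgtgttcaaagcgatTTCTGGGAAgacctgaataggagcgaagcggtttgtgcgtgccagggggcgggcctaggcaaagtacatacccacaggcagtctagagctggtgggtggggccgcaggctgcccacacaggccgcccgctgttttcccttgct

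The motifs were TTCNNNGAA, the palindrome bound by STAT factors, GGGNNTTTC, a form of the kappa-B element, TGANTCA, the AP-1 element, and the TATA box TATAAA. Windows were found for 9 of the 10 genes, with a pair of windows for Tnfrsf9, and none was found for Tnfrsf10b. The STAT palindrome stood in 5 of these 10 windows, those of Lta, Ltb, Fas, Tnfrsf18 and the downstream start of Tnfrsf9, against 8.3% of all 32851 promoter windows of the same length. Lta held it at 152 and at 16 bases before the start. The kappa-B form was in 2 windows, at 86 and 20 bases before the start of Ltb and at 43 bases before the downstream start of Tnfrsf9, against 4.36% of all windows. AP-1 elements were in the windows of Fas and of the downstream start of Tnfrsf9 (7.81% of all windows). TATAAA was in the windows of Tnf, at 29 bases before the start, and of Lta, at 167 bases before the start (13.6% of all windows). In the searched windows no listed matches overlapped. These are matches of letters, and binding was not measured.

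Transcripts of all 3 genes of the locus were lowest in DKK2 replicate 1. Tnf was at 11.4 and 31.4 FPKM in the DKK2 libraries and at 21.4 and 24.6 FPKM in the controls. Ltb was at 16.4 and 44.9 FPKM in DKK2-treated cells, against 19.5 and 21.7 FPKM in the controls. For both genes the DKK2 libraries were the lowest and the highest of the 4, and the controls lay close together between them. Lta was at 1.86 and 6.05 FPKM in DKK2-treated cells, against 6.64 and 6.15 FPKM in the controls, so that DKK2 replicate 2 lay just under the controls. Between the DKK2 libraries, replicate 2 exceeded replicate 1 by 2.77 times for Tnf, 2.74 times for Ltb and 3.26 times for Lta. Between the controls the same ratio of replicate 2 to replicate 1 was 1.15, 1.12 and 0.927.

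The group differences of these genes followed which DKK2 library was kept. The log2 fold change of Tnf was -0.26 ± 0.50 (SE, 95% interval -1.56 to 1.04), and it was 0.44 without DKK2 replicate 1 and -0.95 without DKK2 replicate 2. For Ltb the values were 0.39 ± 0.50 (95% interval -0.91 to 1.70), then 1.09 without DKK2 replicate 1 and -0.31 without DKK2 replicate 2. Lta was at -0.72 ± 0.50 (95% interval -2.0 to 0.56), then -0.07 and -1.37. Lta thus stayed below 0 in both cases, while the estimates of Tnf and Ltb changed sign. The lowest Lta value rests on about 56 fragments in DKK2 replicate 1, against about 185 in DKK2 replicate 2 and 515 and 165 in the controls, by the estimated worth of 1 fragment and the longest annotated transcript.

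Relative to its neighbours in the same library, the Lta transcript was at lower values in the DKK2 libraries than in the controls. The ratio of Ltb to Lta in FPKM was 8.85 and 7.43 in the DKK2 libraries and 2.93 and 3.53 in the controls. The ratio of Tnf to Lta was 6.12 and 5.19 with DKK2 and 3.22 and 4.0 in the controls. Neither ratio overlapped between the groups, although the levels of Tnf and Ltb did. Such a separation was common, since the ratio to Lta did not overlap between the groups for 39.0% of the other 12274 genes tested. These ratios were looked at after the values were seen, and no test was made of them.

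**Figure D2:**
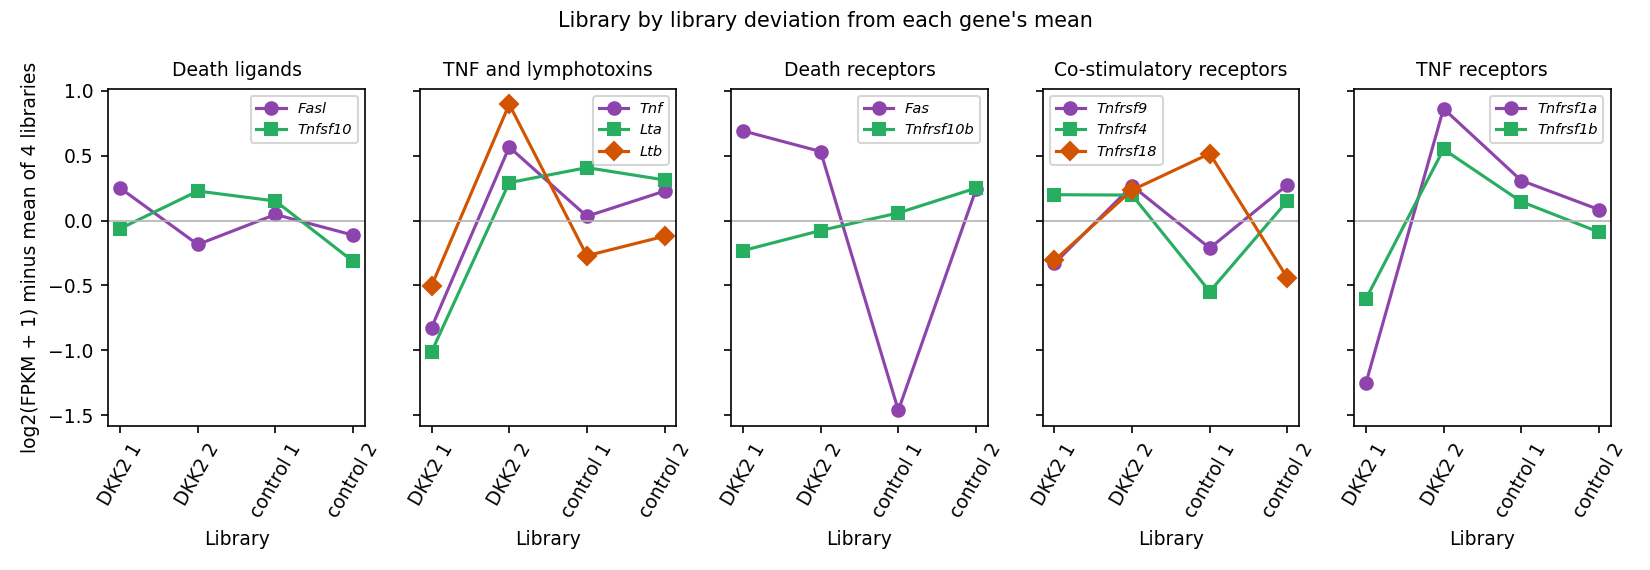
log2(FPKM + 1) of each gene in each library minus the gene's mean over the 4 libraries, by role, with DKK2 libraries left of controls and lines that only link the points of a gene. Tnf, Lta and Ltb are lowest in DKK2 replicate 1, as are the TNF receptor genes Tnfrsf1a and Tnfrsf1b, while Fas and Tnfrsf4 are lowest in control replicate 1.

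The death receptors differed from each other in pattern. Fas, the receptor of Fas ligand, was at 8.33 and 7.36 FPKM in the DKK2 libraries and at 1.10 and 5.83 FPKM in the controls. Both DKK2 libraries were above both controls, and control replicate 1 stood far below the other 3 libraries. Fas averaged 7.84 ± 0.689 FPKM in DKK2-treated cells, against 3.46 ± 3.34 FPKM in controls (SD, n = 2 each). Its log2 fold change was 1.22 ± 0.61 (SE, 95% interval -0.35 to 2.79), the largest of the 10 genes, with an unadjusted p of 0.102 in limma and an adjusted p of 1. The estimate was 0.37 without control replicate 1 and 2.07 without control replicate 2. About 91 fragments lie behind Fas in control replicate 1 and about 270, 241 and 168 behind it in the DKK2 libraries and control replicate 2.

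Tnfrsf10b, the mouse TRAIL receptor with a death domain, was low throughout. It was at 1.27 and 1.52 FPKM in DKK2-treated cells, against 1.77 and 2.16 FPKM in the controls, so both DKK2 values were under both control values. Its log2 fold change was -0.31 ± 0.35 (SE, 95% interval -1.21 to 0.59). Fasl exceeded Fas in every library, by 13.7 and 11.4 times in the DKK2 libraries and by 90.0 and 15.2 times in the controls. Tnfsf10 exceeded Tnfrsf10b by 4.01 and 4.22 times with DKK2 and by 3.41 and 1.90 times in the controls. The ligand of each of these pairs was thus the more abundant transcript per length in all 4 libraries. Both ratios were among the 4 of 8 gene ratios looked at that did not overlap between the groups. Values of Fas and of Tnfrsf10b alone did not overlap either. The share of all genes whose ratio to Fas or to Tnfrsf10b separates in this way was not computed.

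Among the co-stimulatory receptors, CD137 had the most abundant transcript of the 10 genes. Tnfrsf9, which encodes it, was at 420.3 and 637 FPKM in DKK2-treated cells, against 456 and 640.3 FPKM in the controls. In each group replicate 2 was the higher library, by 1.52 times with DKK2 and 1.4 times in the controls, and the groups overlapped. The log2 fold change was -0.06 ± 0.36 (SE, 95% interval -1.0 to 0.88). Its ligand gene Tnfsf9 was far lower, so that the receptor exceeded the ligand by 54.5 to 135 times over the 4 libraries. Tnfrsf18, which encodes GITR, was at 42.0 and 61.6 FPKM in DKK2-treated cells, against 75.0 and 38.1 FPKM in the controls. The controls were the highest and the lowest library, and the difference was -0.07 ± 0.42 (95% interval -1.16 to 1.02). Leaving out DKK2 replicate 1 gave 0.24 for Tnfrsf9 and 0.20 for Tnfrsf18, leaving out control replicate 1 gave 0.41 for Tnfrsf18, and leaving out control replicate 2 gave 0.18 for Tnfrsf9.

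Tnfrsf4, which encodes OX40, lies beside Tnfrsf18 on mouse chromosome 4 but was near the floor of the genes tested. It was at 1.70 FPKM in both DKK2 libraries and at 0.612 and 1.62 FPKM in the controls. Control replicate 1 was again the lowest library, and the other 3 libraries were nearly level. The log2 fold change was 0.39 ± 0.42 (SE, 95% interval -0.69 to 1.48), and it was 0.05 without control replicate 1. About 38 and 39 fragments lie behind the DKK2 values and about 35 and 32 behind the control values, and control replicate 1 was the most deeply sequenced library. The ligand gene Tnfsf4 exceeded Tnfrsf4 by 1.95 and 10.2 times with DKK2 and by 11.5 and 8.61 times in the controls.

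**Figure D3:**
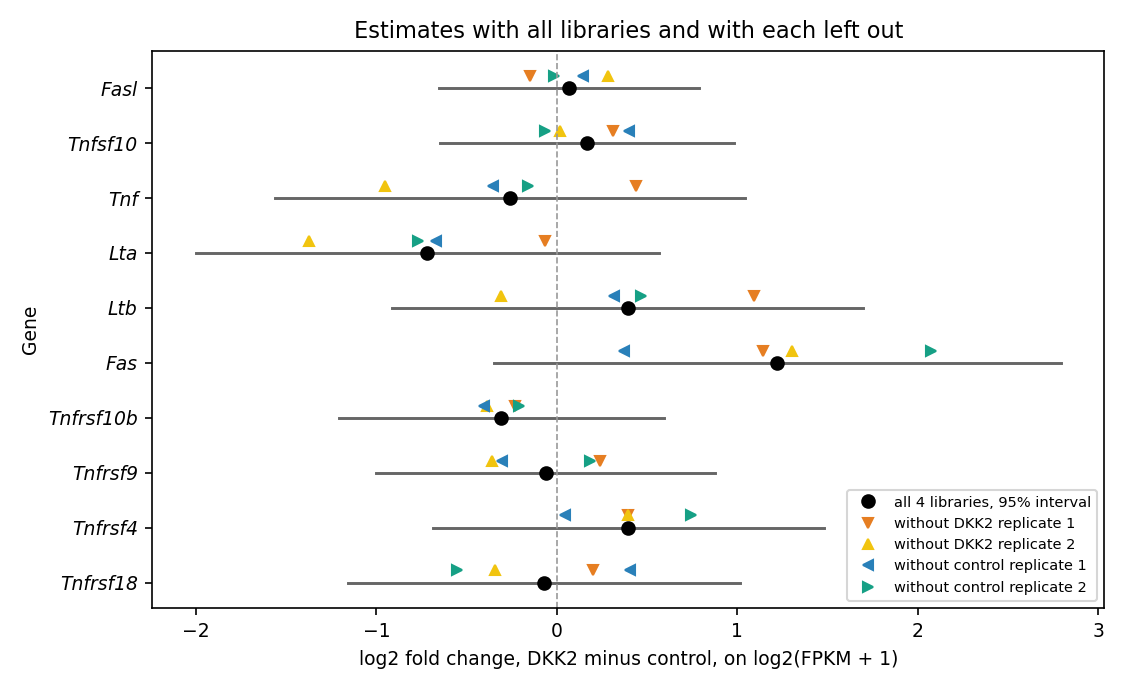
log2 fold changes (DKK2 minus control, on log2(FPKM + 1)) of the 10 genes, as black points with 95% limma intervals from all 4 libraries, and as coloured triangles with each library left out. All 10 intervals include 0, and the estimates of Fasl, Tnfsf10, Tnf, Ltb, Tnfrsf9 and Tnfrsf18 change sign when some library is left out.

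Fas was lowest in control replicate 1, followed by control replicate 2, DKK2 replicate 2 and DKK2 replicate 1, an order that 4.18% of all genes tested had. The summed markers of T cells, of monocytes and macrophages, and of neutrophils had this order too, but it was that of only some of their genes, 2 of 8 T cell markers (Cd3d and Cd3g), 4 of 7 monocyte and macrophage markers and 4 of 5 neutrophil markers. Tnfrsf4 shared the low value in control replicate 1, with its DKK2 libraries level. The 8 T cell markers summed to 245.4 and 206.4 FPKM in the DKK2 libraries and to 66.0 and 162.4 FPKM in the controls. Cd3g made up most of this sum in both DKK2 libraries and in control replicate 2. Cd3e, an invariant chain of the T cell receptor complex, was at 17.4 and 20.4 FPKM in DKK2-treated cells, against 0.601 and 14.0 FPKM in the controls, and Cd3g at 169 and 117 FPKM in DKK2-treated cells, against 23.1 and 87.3 FPKM in controls. Cd8a, which encodes a co-receptor chain of cytotoxic T cells, was at 0.385 and 2.97 FPKM in DKK2-treated cells, against 2.26 FPKM in control replicate 2 and a listed 0 in control replicate 1. Cd8b1, for the partner chain, was at 0.204 and 5.17 FPKM in DKK2-treated cells, against 3.89 FPKM in control replicate 2 and likewise 0 in control replicate 1. Cd28, a co-stimulatory receptor gene, ran the other way, at 21.2 and 28.7 FPKM in DKK2-treated cells, against 37.4 and 32.9 FPKM in the controls. The 7 monocyte and macrophage markers summed to 621 and 272 FPKM in DKK2-treated cells, against 1.39 and 178 FPKM in the controls, with Lyz2 at 552 and 209 FPKM in DKK2-treated cells, against 0.889 and 142 FPKM in controls and Csf1r at 10.4 and 16.1 FPKM in DKK2-treated cells, against 0.0742 and 8.45 FPKM in controls. Lyz2 made up most of this sum in every library. Both DKK2 libraries lay above both controls for 5 of the 7, Lyz2 and Csf1r among them, against 11.8% of all genes tested. Emr1 was at 10.8 and 25.7 FPKM in DKK2-treated cells, against 0.0447 and 17.9 FPKM in controls. Cd14 was at 1.54 and 10.2 FPKM in DKK2-treated cells, against 0.360 and 6.96 FPKM in controls, so both genes overlapped between groups. The 5 neutrophil markers summed to 3354 and 118 FPKM in DKK2-treated cells, against 1.03 and 60.9 FPKM in the controls, with S100a8 at 1738 and 56.4 FPKM in DKK2-treated cells, against 0.341 and 31.6 FPKM in controls. S100a8 and S100a9 together made up most of this sum in every library.

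The sums of other marker lists gave other orders. The 5 B cell markers summed to 4.43 and 30.1 FPKM in DKK2-treated cells, against 0.601 and 17.9 FPKM in the controls. Type 1 innate lymphoid cells also carry TRAIL. Their 4 markers summed to 85.8 and 126.5 FPKM in DKK2-treated cells, against 18.8 and 127.6 FPKM in the controls. Cxcr6 made up most of this sum in every library. Tnfsf10, the gene of TRAIL, was lowest in control replicate 2. Markers of other innate lymphoid cells summed to 11.8 and 63.7 FPKM in DKK2-treated cells, against 55.3 and 29.3 FPKM in controls, and dendritic cell markers to 3.67 and 4.12 FPKM in DKK2-treated cells, against 1.87 and 4.19 FPKM in controls. OX40 and GITR are abundant on regulatory T cells. Foxp3, the factor that defines those cells, was at most 0.0040 FPKM in any library and listed at 0 in DKK2 replicate 1 and control replicate 2. The T cell inhibitory receptor gene Ctla4 was at 4.53 and 5.91 FPKM in DKK2-treated cells, against 0.633 and 1.59 FPKM in the controls. The 3 regulatory T cell markers summed to 5.33 and 6.38 FPKM in DKK2-treated cells, against 1.05 and 2.21 FPKM in controls. Ctla4 made up most of this sum in every library. Ikzf4, the remaining marker, was at 0.792 and 0.465 FPKM in DKK2-treated cells, against 0.416 and 0.628 FPKM in controls, so its groups overlapped. The part of these other cells in the values of Fas, Tnfsf10, Tnfrsf4 and Tnfrsf18 was not tested.

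**Figure D4:**
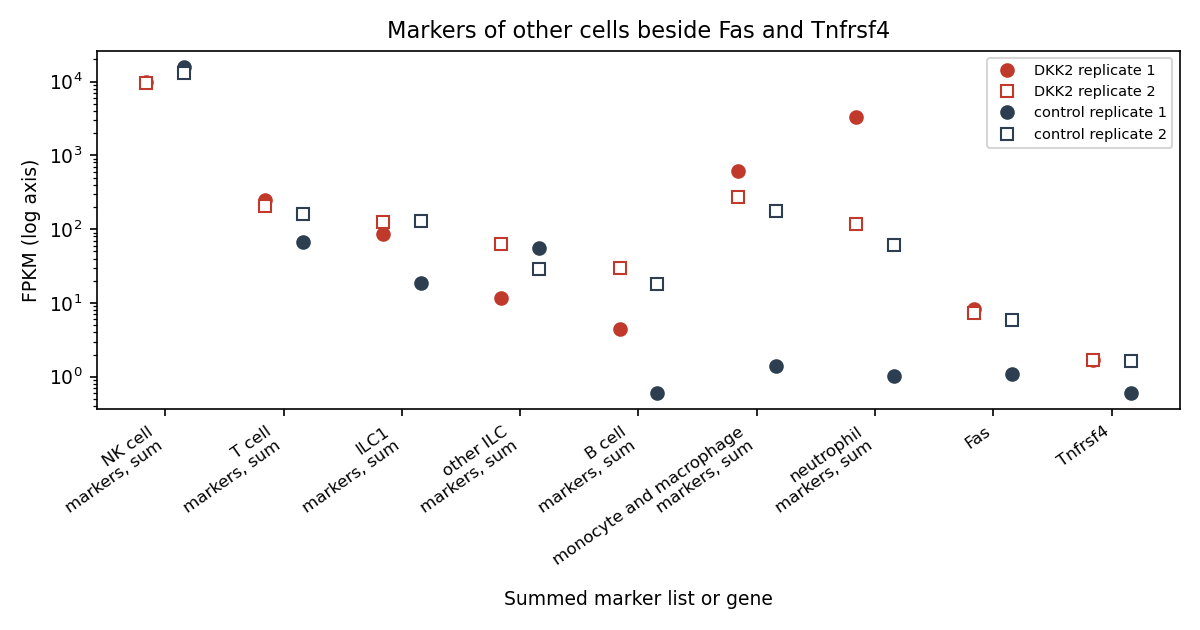
Summed FPKM (log axis) of marker lists and FPKM of Fas and Tnfrsf4 in each library, DKK2 libraries left and controls right. Control replicate 1 is lowest for the T cell, type 1 innate lymphoid, B cell, myeloid and neutrophil sums, and for Fas at 1.10 FPKM and Tnfrsf4 at 0.612 FPKM.

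The remaining ligands of the superfamily were mostly low, and 0 of the 6 tested passed limma in either direction. Of 13 listed, 7 were under a mean of 1 FPKM, among them Tnfsf18, the GITR ligand, which was at most 0.0119 FPKM. The 6 tested had a median log2 fold change of -0.34, against -0.05 over all genes tested. Both DKK2 values were under both control values for 14.8% of all genes tested and for 2 of these 6. These were Tnfsf8, the CD30 ligand, at 5.03 and 5.15 FPKM in DKK2-treated cells, against 14.4 and 5.59 FPKM in the controls (-0.73 ± 0.47 SE), and Tnfsf11, which encodes RANKL, at 1.24 and 1.30 FPKM in DKK2-treated cells, against 3.86 and 2.09 FPKM in controls (-0.77 ± 0.39). Tnfsf14, which encodes LIGHT, a ligand of the lymphotoxin beta receptor, was at 5.75 and 7.63 FPKM in DKK2-treated cells, against 13.6 and 5.80 FPKM in the controls. The highest 2 of the list by mean were Tnfsf12, which encodes TWEAK, at 9.92 and 18.2 FPKM in DKK2-treated cells, against 18.7 and 8.12 FPKM in controls, and Tnfsf4, the OX40 ligand, at 3.32 and 17.3 FPKM in DKK2-treated cells, against 7.04 and 13.9 FPKM in controls.

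Receptors of TNF itself were abundant and were lowest in the same library as their ligand. Tnfrsf1a, the death domain receptor of TNF, was at 25.2 and 113 FPKM in DKK2-treated cells, against 76.4 and 65.3 FPKM in the controls (-0.39 ± 0.72 SE). Tnfrsf1b, the TNF receptor without a death domain, was at 50.7 and 114 FPKM in DKK2-treated cells, against 85.9 and 72.9 FPKM in the controls (-0.06 ± 0.44). Like Tnf and Ltb, both were lowest in DKK2 replicate 1 and highest in DKK2 replicate 2. Tnfrsf1b exceeded Tnf by 2.96 to 4.46 times in the 4 libraries. The lymphotoxin beta receptor gene Ltbr, mostly expressed outside the lymphocyte lineages, was at 1.33 and 4.52 FPKM in DKK2-treated cells, against 0.501 and 2.04 FPKM in the controls (0.75 ± 0.61).

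Of 23 other receptors 15 were tested and 0 passed limma in either direction, with 7 estimates above 0, 8 below and a median of -0.06. Both DKK2 libraries lay below both controls for 2 of the 15 and above for 1, against 14.8% and 11.8% of all genes tested. The lowest estimate was that of Tnfrsf8, which encodes CD30, at 13.8 and 20.03 FPKM in DKK2-treated cells, against 23.2 and 47.9 FPKM in the controls (-0.96 ± 0.43 SE, limma adjusted p = 1), and its groups did not overlap. The highest was that of Cd40, a receptor of antigen-presenting cells, at 8.64 and 18.4 FPKM in DKK2-treated cells, against 0.0482 and 9.21 FPKM in the controls (2.07 ± 1.13). Cd40 was at 9.21 FPKM in control replicate 2, so its groups overlapped, and its lowest value was in control replicate 1, like that of most markers of other cells.

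The machinery downstream of the death receptors was expressed in all 4 libraries, and all 30 listed genes were tested. Of these 0 passed limma in either direction, with 11 estimates above 0, 19 below and a median of -0.05, the same as over all genes tested. Both DKK2 libraries lay below both controls for 5 of the 30 genes and above for 2, against 14.8% and 11.8% of all genes tested. Casp6, an executioner caspase, was at 12.1 and 16.5 FPKM in DKK2-treated cells, against 10.02 and 9.22 FPKM in the controls (log2 fold change 0.51 ± 0.27 SE). Birc2, an inhibitor of apoptosis that acts on the TNF receptor complex, was at 29.0 and 18.4 FPKM in DKK2-treated cells, against 13.0 and 18.8 FPKM in the controls (0.54 ± 0.35), and Tab2, an adaptor of the TAK1 kinase, was at 80.8 and 113 FPKM in DKK2-treated cells, against 97.7 and 100.4 FPKM in controls.

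The library pattern of the TNF locus was also seen in other genes. DKK2 replicate 1 was the lowest library for 5 of the 10 genes (Tnf, Lta, Ltb, Tnfrsf10b and Tnfrsf9), for 16 of the 30 signalling genes and for 35.3% of all genes tested. DKK2 replicate 1 lowest together with DKK2 replicate 2 highest was seen for 2 of the 10 (Tnf and Ltb), for 10 of the 30 signalling genes, for 4 of the 15 other receptors and for 12.9% of all genes tested. Control replicate 1 was lowest for 2 of the 10 (Fas and Tnfrsf4) and for 17.9% of all genes tested. The gap between the DKK2 libraries was larger than that between the controls for 5 of the 10 genes, against 61.6% of all genes tested.

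**Figure D5:**
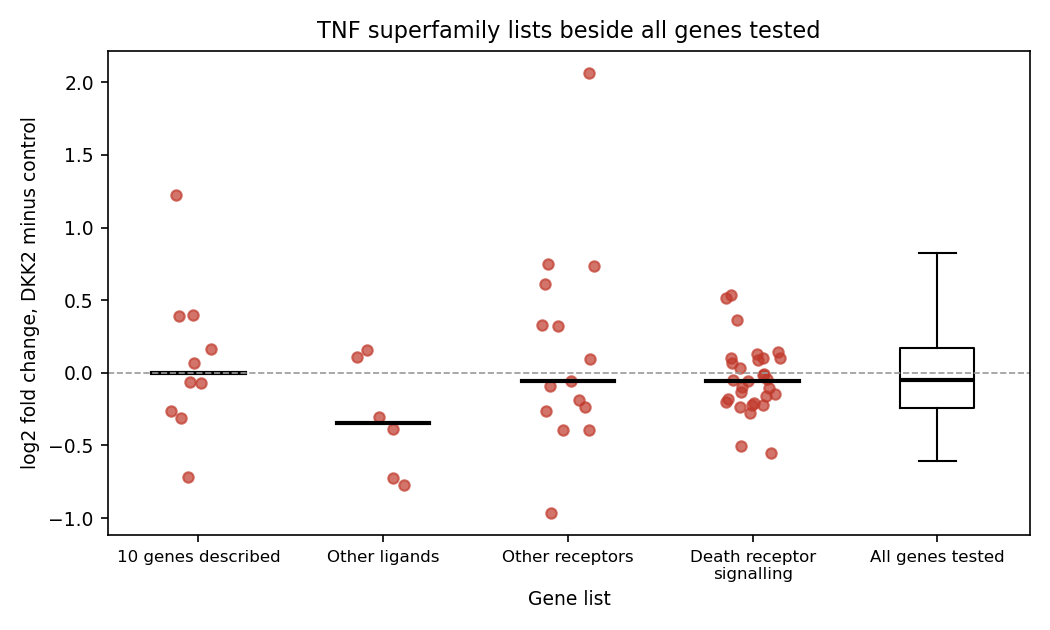
log2 fold changes (DKK2 minus control) of the tested genes in each list, as points with a line at the median, beside a box of all 12275 genes tested with whiskers at the 5th and 95th percentiles. The list medians lie between -0.34 for the other ligands and 0.0015 for the 10 genes described, against -0.05 for all genes.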

How the data were processed

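RNA abundance was measured in 2 DKK2-treated and 2 control libraries, made with a stranded total RNA kit per the labels' protocols. The authors deposited 1 table of FPKM values, per the file headers; its name says RPKM. Per the submitters' processing notes, build mm9 and the tools edgeR, TopHat2 (2.1.0), Cuffdiff (2.1.0) and CASAVA were involved, in roles not stated. Annotation, strand use and the handling of multiply mapped fragments are not given in the sources used here. Columns were assigned to samples by name, with 0 left aside. A repeated symbol was represented by its highest row; none of the 10 genes repeats.

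FPKM carry no counts, so no count model was used. The 12275 genes averaging 1 FPKM or more were compared as log2(FPKM + 1) with limma 3.58.1 in R 4.3.3 (eBayes with trend), two-sided, with Benjamini-Hochberg adjustment and a threshold of 0.05. The procedure was tested on simulated data. The worth of 1 fragment was read as the commonest low value of FPKM times length in kilobases, from GENCODE M21 single-transcript genes, 0.0178 in control replicate 1 and 0.0452 to 0.0515 in the others. Fragment numbers derived from it are approximate. Read totals are unknown.

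The members and lists were chosen with earlier results of these data known. Beyond the 10 genes, the text names, per other list, the 3 largest absolute fold changes, the 2 highest means and fixed defining markers. Tnfsf9, Tnfsf18, Cd8a, Cd8b1, Cd3d, Cd28, Prf1, Ikzf4, Emr1, Cd14, S100a9 and Cxcr6 were added after their values were seen. Some genes that this rule names are not reported here. The kappa-B-like motif replaced a longer form after the windows had first been searched. Alternatives covered pseudocount, filter, scaling, replicate block, weights, trend, repeated symbols and each library left out.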

Additional observations from a re-analysis of the deposited data

How the results depend on the processing

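Under 14 alternative settings the 10 genes gave 138 log2 fold changes, of which 0 passed limma's threshold (adjusted p 0.507 to 1) and 127 kept their direction. The 11 that turned came from rescaling, with Tnfrsf18 at 0.0023 after quantile normalization and Tnfrsf9 at 0.0010 with equal library medians, which add 0.064 to all 10 estimates alike, and from leaving out a library. Over the 4 fits with a library left out the estimates ran from -0.152 to 0.283 for Fasl, from -0.0681 to 0.397 for Tnfsf10, from -0.955 to 0.436 for Tnf, from -0.308 to 1.09 for Ltb, from -0.362 to 0.236 for Tnfrsf9 and from -0.552 to 0.407 for Tnfrsf18. The count of the 10 genes whose groups do not overlap, 4 with all libraries, was 2 with a filter of 5 FPKM, which leaves 8 of the 10, 3 with either rescaling, and 5 to 8 with a library left out, where 3 libraries overlap less often by construction. The 4 genes called among all tested became 0 without the filter, where 22869 genes were tested, and 0 with any library left out, with 150 to 855 at an unadjusted p under 0.05. Among these were Fas without control replicate 2, Ltb without DKK2 replicate 1, and Tnf and Lta without DKK2 replicate 2 (unadjusted p 0.0106, 0.0183, 0.0314 and 0.0171, adjusted p 0.507 to 0.904 in limma). In such fits the lone library of a group is assumed to vary like the other group. The replicate block called 8 genes, none of the 10. Same-numbered libraries deviated from their group means with a correlation of 0.0117 across genes, so the numbers were not taken as pairs. Tnfrsf4 rests on about 32 to 39 fragments a library, and 2 libraries a group limit every comparison.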

Other observations

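Protein-coding neighbours of the TNF locus with a row in the table were looked at after the values of Tnf, Lta and Ltb were seen. Nfkbil1, next to Lta, was at 1.36 and 3.86 FPKM in the DKK2 libraries and at 3.66 and 2.02 FPKM in the controls, lowest and highest in the same libraries as Tnf and Ltb. Ddx39b, an RNA helicase gene, was at 127 and 152 FPKM in DKK2-treated cells, against 172 and 141 FPKM in the controls, also lowest in DKK2 replicate 1. On the other side of the locus, next to Ltb, the leukocyte gene Lst1 was at 49.8 and 54.0 FPKM in DKK2-treated cells, against 1.87 and 20.01 FPKM in the controls, and the macrophage gene Aif1 was at 75.7 and 22.04 FPKM in DKK2-treated cells, against 0.234 and 12.3 FPKM in controls. Both were lowest in control replicate 1, as were most markers of other cells. Of the other neighbours, Prrc2a was at 53.5 and 73.3 FPKM in DKK2-treated cells, against 71.8 and 53.0 FPKM in controls, and Atp6v1g2 was at 1.03 FPKM or less in every library.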
